A study of Homo sapiens with 26 samples.

Results

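The 5 canonical Notch ligands (JAG1, JAG2, DLL1, DLL3 and DLL4) and the 3 fringe enzymes (LFNG, MFNG and RFNG) were followed through both experiments of a study of NOTCH3 signalling in the basal breast cancer line MDA-MB-468, an established line of human origin. These 8 genes were taken by name from 19775 measured genes, and all 8 were found, on 21 probe sets of an Affymetrix array. The values are intensities converted to log2, so a log2 change of 1 is a doubling. Each gene is described on its brightest probe set, the one with the highest mean over all 26 arrays, and the other probe sets are given beside it.

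Notch ligands are membrane proteins that sit on the signal-sending cell. When a ligand bound to a Notch receptor is pulled into its own cell by endocytosis, the receptor is cut by ADAM proteases and then by gamma-secretase, and its intracellular part moves to the nucleus and acts with RBPJ on target genes. Fringe enzymes work earlier, in the Golgi, where they extend O-linked fucose on the receptor with N-acetylglucosamine and thereby alter how strongly it answers Delta-like and Jagged ligands. JAG1 is itself known as a Notch target gene in several cell types.

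The antagonism experiment had 8 arrays of plates grown for 40 h and then treated for 24 h: 2 with the NOTCH3-blocking antibody A4 (10 µg/ml) and 0.05% DMSO, 3 with a control anti-gD IgG (10 µg/ml) and the gamma-secretase inhibitor DAPT (5 µM), and 3 with that IgG and 0.05% DMSO. For the agonism experiment 18 arrays were deposited, 3 for each of its 6 groups. Every group but DMSO, which had 0.05% DMSO, first received 5 µM DAPT for 16 h, and all plates then had 2 h in plain medium. The 6 groups then received JAG1-Fc on beads, the NOTCH3-activating antibody A13 at 20 µg/ml, Fc on beads, control IgG at 20 µg/ml, 5 µM DAPT or 0.05% DMSO. The DAPT and DMSO plates were dosed once more at 22 h, and all cells were collected at 24 h. The Fc, IgG, A13 and JAG1-Fc plates are therefore all washout plates with the same DAPT history. Whether arrays within a group stem from independent cultures is not given in the labels, whose protocol speaks of 1 DMSO plate, so the p-values measure only the spread between these arrays, which may be technical.

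Of the markers chosen for the line, EGFR, KRT5, EPCAM and CDH1 lay between the 91.9th and 99.7th percentile of all genes in both experiments, and the progesterone receptor PGR at the 17.5th and 17.9th. ERBB2 lay at about the 72nd percentile and ESR1 at the 39.1st in the antagonism and the 52.2nd in the agonism experiment. Among 10 markers of fibroblasts, endothelium and leukocytes the percentiles ran from 7.49 for PTPRC to 87.3 for CD14, and COL1A1 reached 73.4, so the defining markers of other cell types were not uniformly dim. Of these 10, limma called 0 in the antagonism experiment, with 2 at an unadjusted p under 0.05 for DAPT against control, 1 for A4 against DAPT and 0 for A4 against control. In the agonism experiment CD14 was lower by 0.72 with A13 than with IgG (adjusted p = 4.15e-06), and with DAPT relative to DMSO CDH5 rose by 0.63 and CD14 fell by 0.38 (adjusted p = 0.0022 and 0.00242). With JAG1-Fc beads against Fc beads limma called 0 of 10, with 2 at an unadjusted p under 0.05. The part of these markers in the members' changes was not tested. Percentiles compare different probe sets and are only rough. Array medians lay between 7.60 and 7.65 in the antagonism and between 6.84 and 6.88 in the agonism experiment, so no level is compared across experiments. Control 2 of the antagonism experiment stood apart: its log2 differences from control 3 had an SD of 0.32 across genes, and from control 1 of 0.247, against 0.129 to 0.167 for the other pairs of arrays in that experiment.

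The sequence before the start of JAG1 and LFNG, the members with the clearest responses, is shown with that of HES1, a classical Notch target, for comparison. Promoters of 5 members (JAG1, JAG2, DLL4, LFNG and RFNG) were matched in the RefSeq table of GRCh38.p14, LFNG with 2 starts, and DLL1, DLL3 and MFNG were not matched. The windows are the 250 bases upstream of the start, written 5′ to 3′ on the strand of the gene. They lie at chr20:10674000-10674249 on the minus strand for JAG1, at chr7:2512279-2512528 and chr7:2517613-2517862 on the plus strand for LFNG, and at chr3:194135898-194136147 on the plus strand for HES1. Capitals mark the letters TGGGAA, the core bound by RBPJ, or CACGNG, a form bound by HES and HEY repressors, searched on both strands (TTCCCA and CNCGTG on the other).
JAG1: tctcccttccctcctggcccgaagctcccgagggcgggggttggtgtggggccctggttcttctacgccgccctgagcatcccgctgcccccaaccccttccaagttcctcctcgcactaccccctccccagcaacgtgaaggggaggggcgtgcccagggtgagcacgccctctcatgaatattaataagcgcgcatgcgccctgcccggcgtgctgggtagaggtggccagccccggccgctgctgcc
LFNG, upstream start: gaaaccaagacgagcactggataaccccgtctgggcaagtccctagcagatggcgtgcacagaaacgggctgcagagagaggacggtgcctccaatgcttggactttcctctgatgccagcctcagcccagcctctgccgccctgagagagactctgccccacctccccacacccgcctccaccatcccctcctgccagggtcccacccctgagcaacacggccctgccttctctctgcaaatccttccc
LFNG, downstream start: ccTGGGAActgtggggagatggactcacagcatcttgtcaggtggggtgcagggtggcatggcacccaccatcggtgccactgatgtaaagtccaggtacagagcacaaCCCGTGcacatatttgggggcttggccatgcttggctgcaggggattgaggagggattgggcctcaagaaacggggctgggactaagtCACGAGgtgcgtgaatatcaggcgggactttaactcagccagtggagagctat
HES1: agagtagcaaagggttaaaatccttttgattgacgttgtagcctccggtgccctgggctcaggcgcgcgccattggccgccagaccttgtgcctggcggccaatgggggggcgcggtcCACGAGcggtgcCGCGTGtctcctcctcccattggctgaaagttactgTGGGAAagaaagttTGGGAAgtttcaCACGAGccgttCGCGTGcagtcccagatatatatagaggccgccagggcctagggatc
TGGGAA was matched 0 times before JAG1 and before the upstream start of LFNG, 1 time before the downstream start of LFNG and 2 times before HES1. CACGNG was matched 0 times before JAG1 and the upstream LFNG start, 2 times before the downstream LFNG start and 4 times before HES1. The windows of JAG2 and DLL4 held 2 and 1 matches of CACGNG and 0 of TGGGAA, and that of RFNG held neither. No matches overlapped. TGGGAA was thus in 1 and CACGNG in 3 of the members' 6 windows, against 20.8% and 26.7% of 35116 windows of the same length in the table, too few windows to set apart from those shares. A match describes letters only, and sites outside these windows were not searched.

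JAG1, at chr20:10637684-10673999 in GRCh38.p14, was the ligand that moved furthest. In the antagonism experiment it had log2 intensities of 10.47 and 10.53 with A4, of 10.43, 10.32 and 10.74 with DAPT, and of 11.12, 10.98 and 11.33 in control plates. By this brightest probe set every A4 and DAPT array lay below every control array. The log2 change was -0.64 ± 0.14 (SE) for A4 and -0.64 ± 0.12 for DAPT, each against control, or 0.641 of the control level for both. Neither passed the threshold of an adjusted p under 0.05 in limma, with adjusted p = 0.15 for A4 and 0.0781 for DAPT (2 and 3 arrays against 3). Both comparisons use the same 3 controls. Without control 2 both passed, at -0.72 for each, with adjusted p = 0.0424 for A4 and 0.00967 for DAPT. Of the 6 arrays left out in turn for DAPT, only that 1 gave a call, and otherwise adjusted p ran from 0.065 to 0.347. A4 did not pass without control 1 or control 3. Between A4 and DAPT JAG1 differed on this probe set by 0.00 ± 0.14, with a 95% interval from -0.31 to 0.31. In bulk RNA, fewer cells with a transcript and less of it per cell cannot be told apart.

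**Figure D1:**
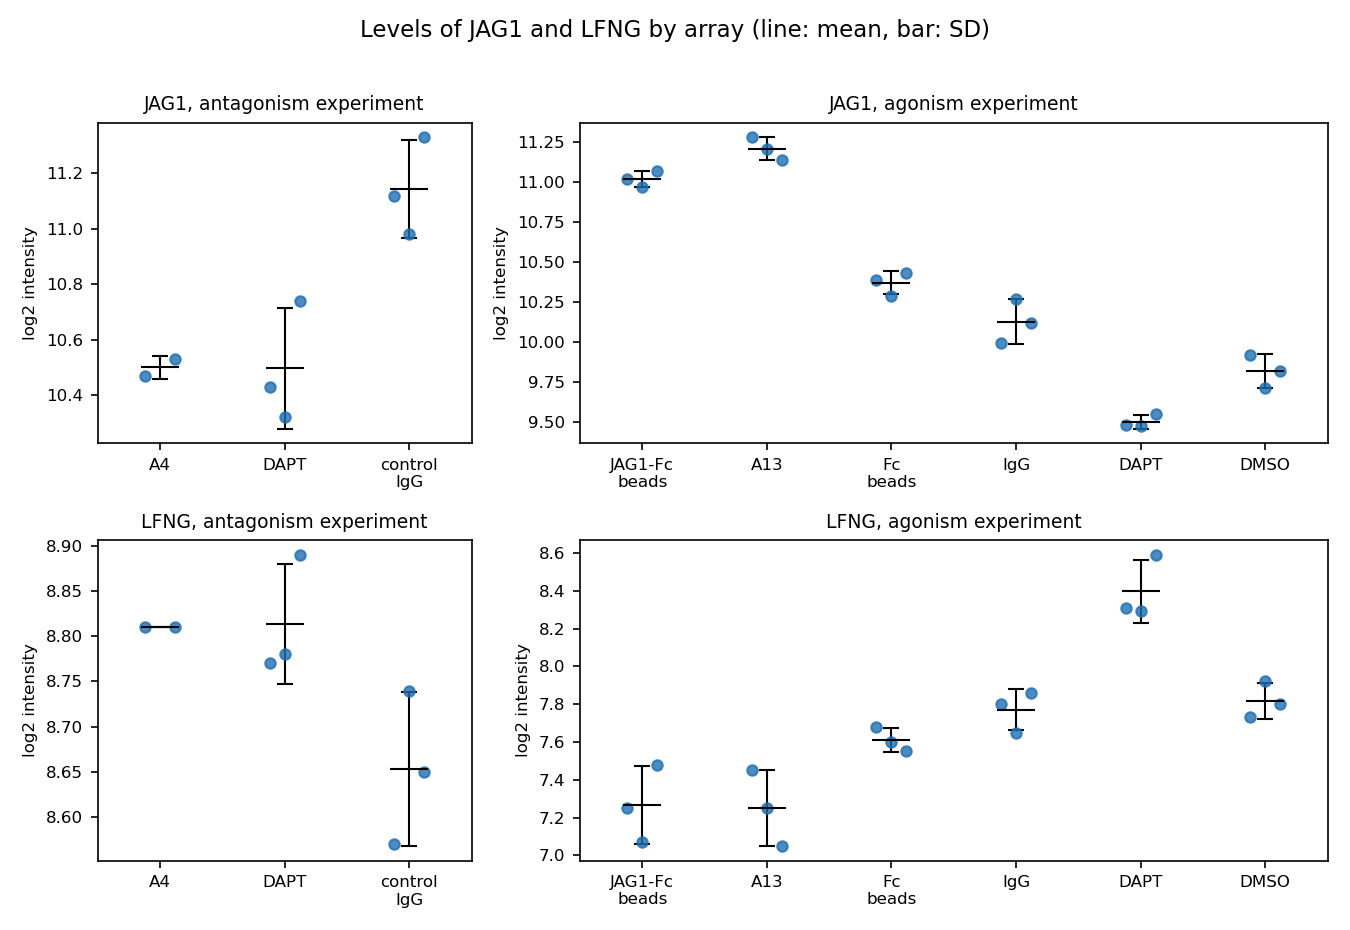
Log2 intensity of JAG1 (top) and LFNG (bottom) on their brightest probe sets, 1 point per array, with the group mean (line) and SD (bar), in the antagonism (left) and agonism (right) experiments; each panel has its own vertical scale. In the agonism experiment JAG1 is highest with A13 and JAG1-Fc beads and lowest with DAPT, while LFNG is highest with DAPT and lowest with both agonists.

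In the agonism experiment JAG1 spanned a wide range. Its log2 intensities were 11.02, 10.97 and 11.07 with JAG1-Fc beads and 11.28, 11.21 and 11.14 with A13. They were 10.39, 10.29 and 10.43 with Fc beads, 9.99, 10.27 and 10.12 with IgG, 9.48, 9.47 and 9.55 with DAPT and 9.92, 9.71 and 9.82 with DMSO. The arrays of no 2 groups overlapped for this probe set. In ascending order of the means the groups were DAPT (9.50 ± 0.04, SD, n = 3 as for all groups here), DMSO (9.81 ± 0.11), IgG (10.13 ± 0.14), Fc beads (10.37 ± 0.07), JAG1-Fc beads (11.02 ± 0.05) and A13 (11.21 ± 0.07). Of the 5 steps between neighbours in that order, those between IgG and Fc beads and between JAG1-Fc beads and A13 did not pass.

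A13 against IgG, both after washout, asked what activating NOTCH3 does. JAG1 rose by 1.08 ± 0.07, or 2.12-fold (adjusted p = 8.76e-09). JAG1-Fc beads against Fc beads asked what an immobilised ligand does, a question not limited to NOTCH3. There JAG1 rose by 0.65 ± 0.07, or 1.57-fold (adjusted p = 1.44e-05). The difference between these 2 effects was -0.44 ± 0.10 (beads minus antibody) and did not pass (adjusted p = 0.134). It passed when only the brighter 50% of genes were tested (adjusted p = 0.0386) and with a variance trend and robust estimation (adjusted p = 0.0302). With each of its 12 arrays left out in turn it never passed. Compared directly, JAG1-Fc beads and A13 differed by -0.19 ± 0.07 (adjusted p = 0.144, 95% interval -0.35 to -0.04). Fc beads against IgG gave 0.25 ± 0.07 (adjusted p = 0.0968), which passed without IgG array 2 at 0.32 (adjusted p = 0.0381). That was the only 1 of 6 arrays whose removal gave a call. The ligand on the beads is protein, and the array measures RNA.

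The remaining comparisons placed JAG1 against the blocked and untreated states. With continued DAPT it fell by 0.32 ± 0.07 relative to DMSO (adjusted p = 0.00491). On IgG plates after washout it rose by 0.63 ± 0.07 relative to DAPT (adjusted p = 1.67e-05), and it was also 0.31 ± 0.07 above DMSO (adjusted p = 0.00326). With A13 it was 3.28-fold the DAPT level and 2.63-fold the DMSO level. With JAG1-Fc beads it was 2.87-fold the DAPT level and 2.31-fold the DMSO level (adjusted p from 4.56e-12 to 1.29e-09 for these 4). These folds are not those of the agonist alone, as IgG plates had 1.55-fold the DAPT level and 1.24-fold the DMSO level. Agonist plates had no DAPT after the washout, unlike DAPT plates, and had prior DAPT, unlike DMSO plates. That holds for every member where agonist plates are set against DAPT or DMSO. The IgG and DMSO plates differed in prior DAPT, in antibody and in the late second dose, which cannot be told apart.

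JAG1 has 6 probe sets, all of the _x_at or _s_at kind, which can also detect related transcripts. In 1 fit over all 54613 probe sets other than controls, chosen after the data were seen, 4 of the 6 gave changes of like size. With A13 against IgG these were 1.08 for 209099_x_at, 1.19 for 216268_s_at, 1.19 for 209098_s_at and 1.17 for 231183_s_at, and with JAG1-Fc against Fc beads they were 0.65, 0.74, 0.70 and 0.73. The 2 other probe sets, 229924_s_at and 209097_s_at, had mean log2 levels of 7.03 and 6.25 over all arrays and passed in none of 14 comparisons, with changes from -0.18 to 0.26. With DAPT in the antagonism experiment 209098_s_at passed on its own (-0.93 ± 0.11, adjusted p = 0.046). There 231183_s_at gave -0.74 ± 0.34 (adjusted p = 0.535). Its arrays overlapped, with 7.86 in DAPT array 3 and 7.38 in A4 array 1 against 7.33 in control 2. With A4 against control 216268_s_at, 209098_s_at and 231183_s_at gave -0.69, -0.60 and -0.62, and none passed (adjusted p = 0.392, 0.344 and 0.827). A4 against DAPT gave 0.33 ± 0.13 for 209098_s_at and did not pass (adjusted p = 0.637). With DAPT against DMSO the agreement was less close: 216268_s_at passed (-0.31, adjusted p = 0.0324), while 231183_s_at (-0.25, adjusted p = 0.0527) and 209098_s_at (-0.18, adjusted p = 0.323) did not.

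**Figure D2:**
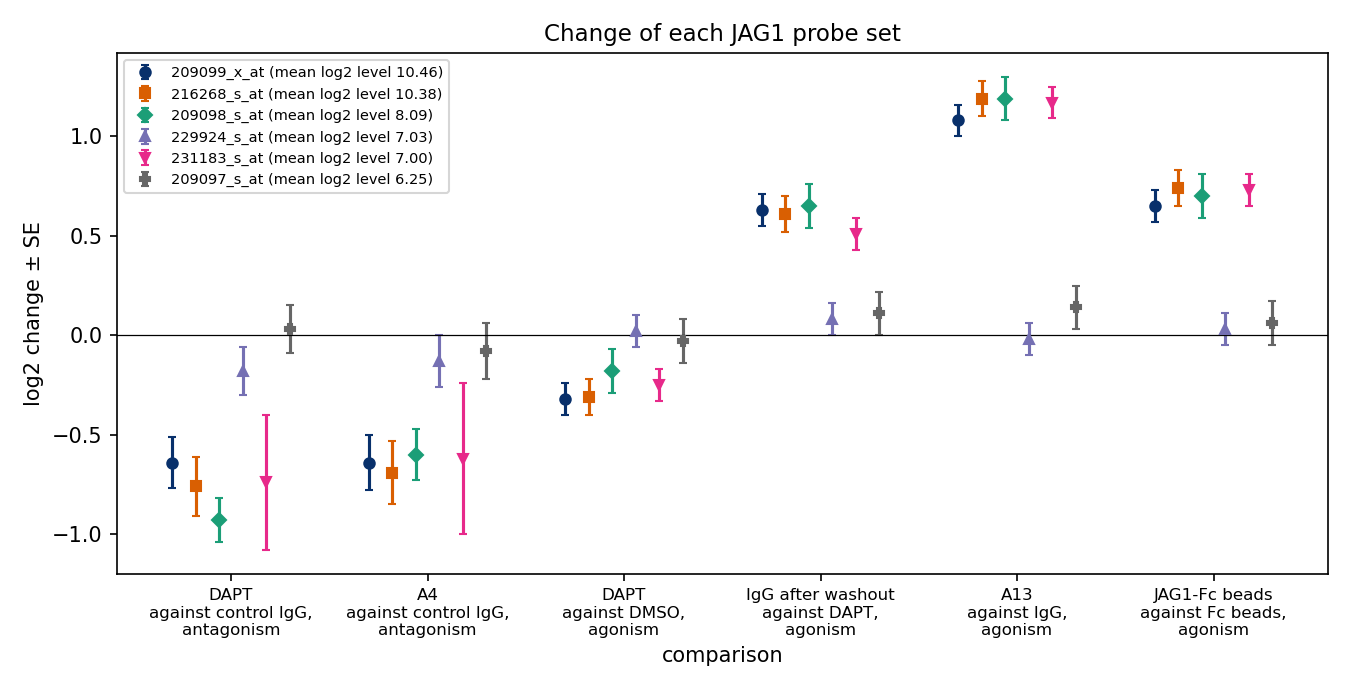
Log2 change with SE (vertical axis) of each of the 6 JAG1 probe sets in 6 comparisons (horizontal axis), from a fit over all probe sets; the legend gives each probe set's mean log2 level over all 26 arrays. The probe sets 209099_x_at, 216268_s_at, 209098_s_at and 231183_s_at lie together between 1.08 and 1.19 for A13 against IgG, and 229924_s_at and 209097_s_at lie near 0.

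JAG2, at chr14:105140995-105168776, encodes the other Jagged ligand and moved less. In the agonism experiment its log2 intensities were 8.47, 8.54 and 8.44 with JAG1-Fc beads and 8.16, 8.14 and 8.26 with A13. They were 8.29, 8.20 and 8.36 with Fc beads, 8.15, 8.19 and 8.07 with IgG, 8.03, 7.85 and 7.97 with DAPT and 7.90, 8.10 and 8.02 with DMSO. By this brightest probe set all 3 JAG1-Fc arrays lay above every other array of the experiment. JAG2 rose with JAG1-Fc beads relative to DAPT by 0.53 ± 0.07 (adjusted p = 4.71e-06) and relative to DMSO by 0.47 ± 0.07 (adjusted p = 1.4e-05). Against their own control, the Fc beads, the change was 0.20 ± 0.07 and did not pass (adjusted p = 0.0858), and Fc beads against IgG gave 0.15 ± 0.07 (adjusted p = 0.301). With A13 against IgG it was 0.05 ± 0.07, with a 95% interval from -0.09 to 0.19 (adjusted p = 0.722). JAG2 was higher by 0.30 ± 0.07 with JAG1-Fc beads than with A13 (adjusted p = 0.0124), which was lost without JAG1-Fc array 2 or A13 array 1 or 2 (adjusted p from 0.0515 to 0.0603). That comparison also sets beads against a soluble antibody. The test of the difference between the agonist effects, each against its own control, gave 0.15 ± 0.09 and did not pass (adjusted p = 0.91). With A13 JAG2 rose relative to DAPT by 0.24 ± 0.07 (adjusted p = 0.0113), which was lost without A13 array 3 or DAPT array 2. The second JAG2 probe set, 209784_s_at, passed with JAG1-Fc beads against DAPT (0.42 ± 0.08) and against DMSO (0.29 ± 0.08). It did not pass with JAG1-Fc beads against A13 (0.22 ± 0.08, adjusted p = 0.177) or with A13 against DAPT (0.20 ± 0.08, adjusted p = 0.0926). By that probe set Fc array 2 (7.90) was not below the JAG1-Fc arrays (7.86, 7.85 and 7.90).

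In the antagonism experiment JAG2 had 8.81 and 9.14 with A4, 8.51, 8.65 and 8.73 with DAPT, and 9.02, 8.74 and 9.02 in control plates. Every DAPT array lay below every control array by this probe set, but the change of -0.30 ± 0.11 did not pass (adjusted p = 0.313). A4 against control gave 0.04 ± 0.13 (adjusted p = 0.952), where 209784_s_at gave -0.50 ± 0.21 and did not pass either (adjusted p = 0.733). For DAPT that probe set gave -0.31 ± 0.19 (adjusted p = 0.659).

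The Delta-like ligands passed in few comparisons. DLL1, at chr6:170282206-170291078, was dim in the agonism experiment, with a mean log2 level of 5.76 at the 15.7th percentile of all genes. It passed in 1 comparison, JAG1-Fc beads (5.90, 5.83 and 5.93) against DAPT (5.72, 5.53 and 5.54), by 0.29 ± 0.09 (adjusted p = 0.0181). That value is not firm: the second DLL1 probe set, 224215_s_at, passed in the opposite direction (-0.37 ± 0.11, adjusted p = 0.0233), the mean of both gave -0.04, and the call was lost without JAG1-Fc array 3 or DAPT array 2 or 3. With DAPT against DMSO the probe sets also differed: 224215_s_at rose by 0.46 ± 0.11 (adjusted p = 0.0111), and the main one gave -0.10 ± 0.09.

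DLL3, at chr19:39498947-39508469, encodes a Delta-like protein that does not activate Notch on neighbouring cells. It passed in 1 comparison, A13 (8.54, 8.65 and 8.65) against DAPT (8.43, 8.31 and 8.32), by 0.26 ± 0.07 (adjusted p = 0.00855). The mean of its 4 probe sets gave 0.01 there (adjusted p = 0.91), and none of the other 3 passed in it. Among those, 230568_x_at fell by 0.27 ± 0.09 with JAG1-Fc beads relative to DMSO (adjusted p = 0.0227), where the main one gave 0.00 ± 0.07. DLL4, at chr15:40929340-40939073, is the Delta-like ligand best known from blood vessels. It passed in 0 of 15 comparisons, with changes from -0.21 to 0.17.

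Among the fringe enzymes LFNG, lunatic fringe, moved opposite to JAG1. The gene lies at chr7:2512529-2529177. In the agonism experiment it had log2 intensities of 7.25, 7.07 and 7.48 with JAG1-Fc beads and 7.45, 7.25 and 7.05 with A13. It had 7.68, 7.60 and 7.55 with Fc beads, 7.80, 7.65 and 7.86 with IgG, 8.31, 8.29 and 8.59 with DAPT and 7.73, 7.92 and 7.80 with DMSO. On this brightest probe set every DAPT array lay above every other array of the experiment. On it every agonist array lay below every Fc bead, IgG and DMSO array. DAPT raised LFNG by 0.58 ± 0.11 relative to DMSO (adjusted p = 0.00117), where JAG1 fell. On IgG plates after washout it fell by 0.63 ± 0.11 relative to DAPT (adjusted p = 0.0012), and IgG and DMSO plates differed by -0.05 ± 0.11 (adjusted p = 0.778, 95% interval -0.28 to 0.18).

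A13 lowered LFNG further, by 0.52 ± 0.11 relative to IgG (adjusted p = 0.00309). JAG1-Fc beads against Fc beads gave -0.34 ± 0.11, which did not pass (adjusted p = 0.0665) but did without JAG1-Fc array 3 (-0.45, adjusted p = 0.0246). That array was the only 1 of 6 whose removal gave a call. The difference of the 2 agonist effects was 0.17 ± 0.16 (adjusted p = 0.942), and JAG1-Fc beads and A13 differed directly by 0.02 ± 0.11 (95% interval -0.22 to 0.25). LFNG fell to 0.453 of the DAPT level with A13 (adjusted p = 2.36e-07) and to 0.458 of it with JAG1-Fc beads (adjusted p = 2.41e-07). Relative to DMSO it fell by 0.57 ± 0.11 with A13 and by 0.55 ± 0.11 with JAG1-Fc beads.

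In ascending order of means LFNG ran from A13 (7.25 ± 0.20) and JAG1-Fc beads (7.27 ± 0.21) through Fc beads (7.61 ± 0.07), IgG (7.77 ± 0.11) and DMSO (7.82 ± 0.10) to DAPT (8.40 ± 0.17). Of the 5 steps between neighbours in that order only the one between DMSO and DAPT passed. The second LFNG probe set, 215270_at, was dimmer, with a mean log2 level of 6.36 in the agonism experiment against 7.69 for the main one, and passed in 0 of 14 comparisons (changes from -0.29 to 0.21). In the antagonism experiment LFNG had 8.81 and 8.81 with A4, 8.77, 8.78 and 8.89 with DAPT, and 8.57, 8.74 and 8.65 in control plates. By the main probe set the A4 and DAPT arrays lay above all controls. The changes of 0.16 ± 0.08 and 0.16 ± 0.07 did not pass (adjusted p = 0.591 and 0.383). By 215270_at the DAPT arrays (6.71, 6.79 and 6.88) overlapped the controls (6.77, 6.75 and 6.82). Its changes were 0.13 ± 0.09 with A4 and 0.01 ± 0.08 with DAPT.

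**Figure D3:**
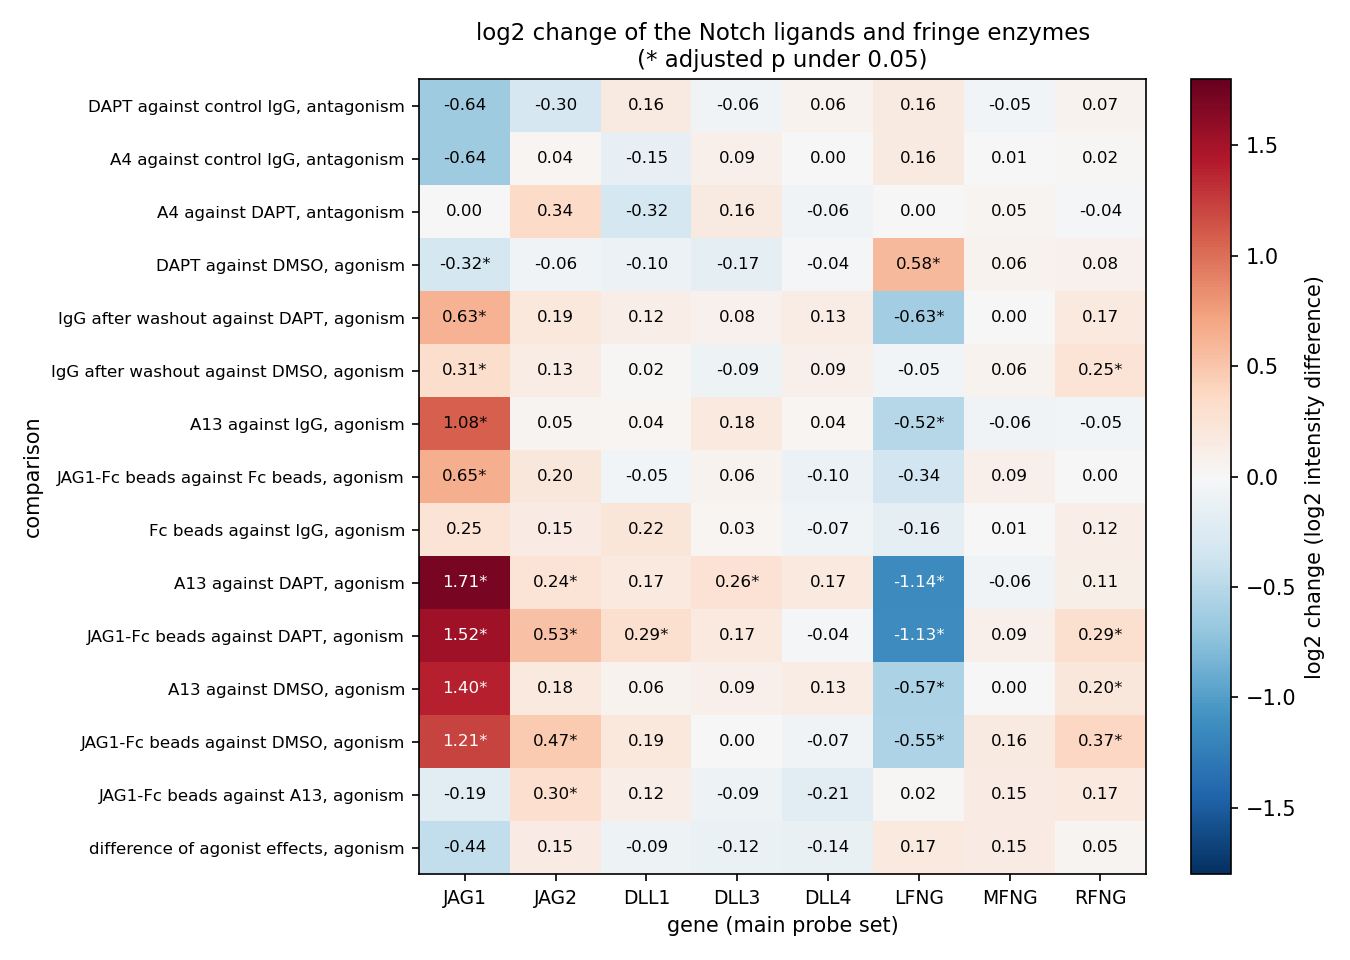
Log2 change of each of the 8 genes (columns, brightest probe set) in each of the 15 comparisons (rows), coloured from blue (lower in the first-named group) to red (higher), with an asterisk where limma's adjusted p was under 0.05. JAG1 and LFNG carry most of the asterisks and have opposite signs wherever both passed.

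RFNG, radical fringe, at chr17:82047902-82051811, was higher on washout and bead plates than on DMSO plates. Its log2 intensities were 9.58, 9.68 and 9.71 with JAG1-Fc beads and 9.41, 9.42 and 9.61 with A13. They were 9.72, 9.69 and 9.57 with Fc beads, 9.54, 9.65 and 9.42 with IgG, 9.34, 9.37 and 9.39 with DAPT and 9.24, 9.29 and 9.32 with DMSO. All arrays of the 4 washout groups lay above all DAPT and DMSO arrays. Relative to DMSO it rose by 0.37 ± 0.07 with JAG1-Fc beads (adjusted p = 0.00029), by 0.25 ± 0.07 with IgG (adjusted p = 0.0105) and by 0.20 ± 0.07 with A13 (adjusted p = 0.0406). Relative to DAPT it rose by 0.29 ± 0.07 with JAG1-Fc beads (adjusted p = 0.00328). IgG (0.17 ± 0.07, adjusted p = 0.149) and A13 (0.11 ± 0.07, adjusted p = 0.274) did not pass against DAPT. Against DMSO the IgG call was lost without DMSO array 1 or IgG array 2. The A13 call against DMSO was lost without A13 array 3 or any 1 DMSO array. It was also lost in the fit over all probe sets (adjusted p = 0.0642). Neither agonist passed for RFNG against its own control: A13 against IgG gave -0.05 ± 0.07 (95% interval -0.20 to 0.09) and JAG1-Fc against Fc beads gave 0.00 ± 0.07 (95% interval -0.15 to 0.14). MFNG, manic fringe, at chr22:37469063-37486384, passed in 0 of 15 comparisons on its main probe set, with changes from -0.06 to 0.16, and its 2 other probe sets passed in none of 14.

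**Figure D4:**
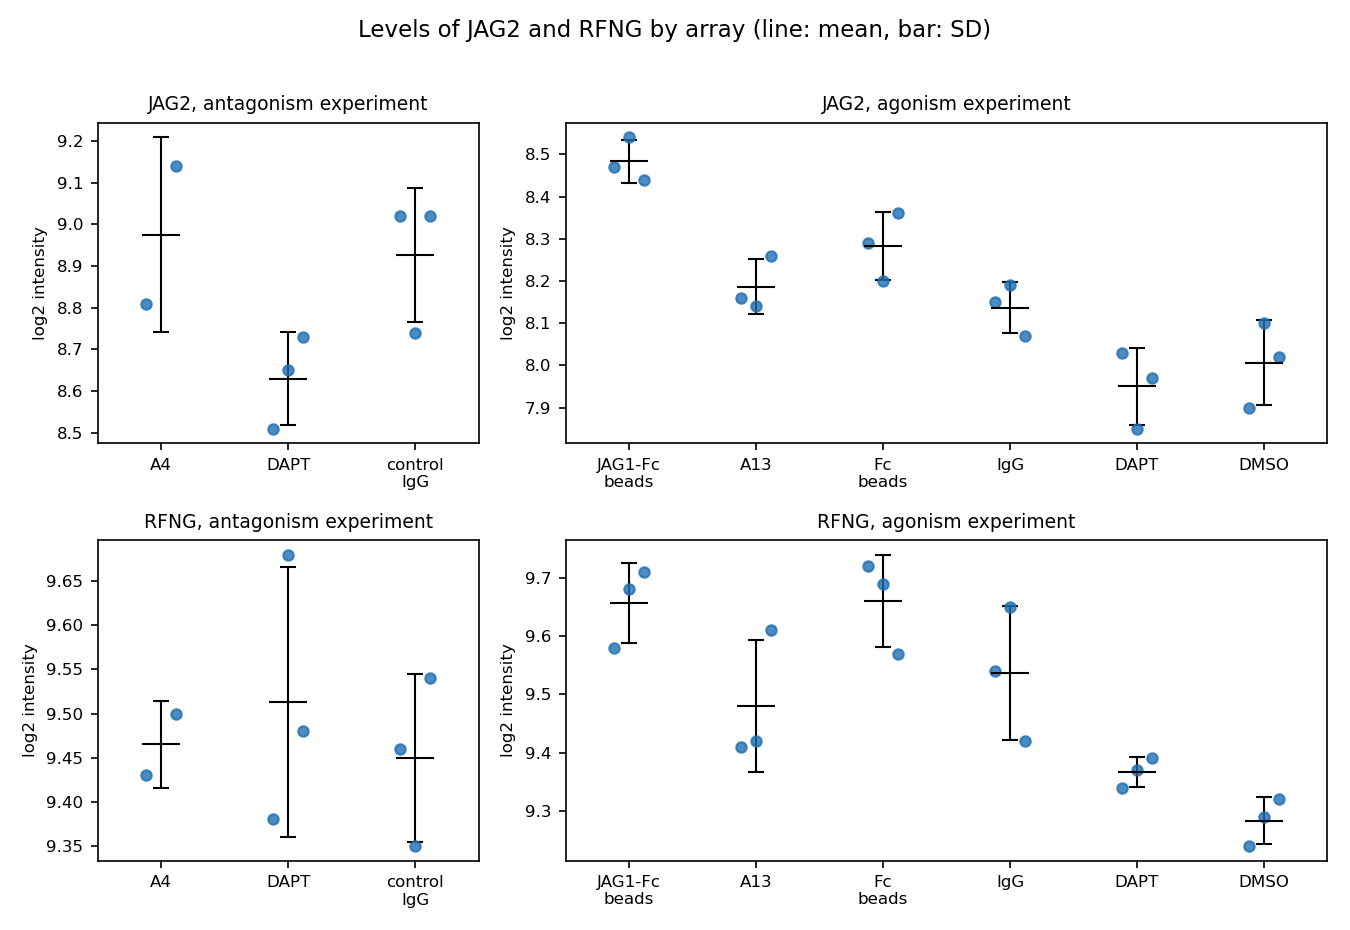
Log2 intensity of JAG2 (top) and RFNG (bottom), 1 point per array, with the group mean (line) and SD (bar), in the antagonism (left) and agonism (right) experiments; each panel has its own vertical scale. The JAG1-Fc bead arrays of JAG2 lie between 8.44 and 8.54, above all other arrays of that experiment, and RFNG is lowest on DMSO plates.

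Counted over the 8 genes, A13 against IgG called 1 higher and 1 lower, where 14.7% of all genes were called (5.68% higher and 9.02% lower). JAG1-Fc against Fc beads called 1 higher and 0 lower, where 8.11% of all genes were called (2.97% higher and 5.14% lower). Fc beads against IgG called 0, with 3 members at an unadjusted p under 0.05, where 2.08% of all genes were called (1.64% higher and 0.440% lower). JAG1-Fc beads against A13 called 1 higher, where 6.37% of all genes were called (4.72% higher and 1.64% lower). The split of all genes in the last 2 comparisons depended on scaling: repeated quantile normalization gave 302 higher of 500 called in place of 324 of 411 for Fc beads against IgG, and 798 of 1439 in place of 934 of 1259 for JAG1-Fc beads against A13.

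DAPT against DMSO called 1 member higher and 1 lower, where 20.7% of all genes were called (12.4% higher and 8.31% lower). IgG against DAPT called 1 higher and 1 lower, where 9.77% were called (4.15% higher and 5.62% lower). IgG against DMSO called 2 higher, where 30.6% were called (17.9% higher and 12.6% lower). Relative to DAPT, JAG1-Fc beads called 4 higher and 1 lower, where 33.2% of all genes were called (17.0% higher and 16.1% lower), and A13 called 3 higher and 1 lower, where 28.2% were called (12.0% higher and 16.2% lower). Relative to DMSO, JAG1-Fc beads called 3 higher and 1 lower, where 40.0% were called (23.1% higher and 16.9% lower), and A13 called 2 higher and 1 lower, where 30.9% were called (15.7% higher and 15.2% lower). Counts of 1 to 5 among 8 genes are too small to set apart from these shares, and the comparisons share arrays.

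In the antagonism experiment limma called 0 members for A4 against control, where 0.101% of all genes were called (0.0455% higher and 0.0556% lower), with 1 member at an unadjusted p under 0.05. It called 0 for DAPT against control, where 0.354% were called (0.202% higher and 0.152% lower), with 3 at an unadjusted p under 0.05, and 0 for A4 against DAPT, where 0% were called, with 2. The difference of agonist effects also called 0 members by limma, where 0.182% of all genes were called (0.116% higher and 0.0657% lower), with 1 at an unadjusted p under 0.05. Of those genes 23 of 36 were higher, and 9 of 18 after median centring. The median change over the 8 genes lay between -0.05 and 0.23 across the 15 comparisons, and that over all genes between -0.026 and 0.057.

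The rest of the pathway was read from fixed lists, and each count stands against the share of all genes called: 5.68% higher and 9.02% lower for A13 against IgG, 2.97% and 5.14% for JAG1-Fc against Fc beads, and 12.4% and 8.31% for DAPT against DMSO. Of 7 enzymes that build sugars on the EGF repeats where fringe acts, A13 against IgG raised 1, POGLUT1, the O-glucosyltransferase (0.24 ± 0.07, adjusted p = 0.0256), and lowered 0, with a list median of 0.14. DAPT against DMSO lowered the same gene by 0.31 ± 0.07 (adjusted p = 0.00371) and no other. Of 6 measured genes for ligand endocytosis, DAPT against DMSO called 3 higher, where 12.4% of all genes were called higher. They were the epsin EPN3 (0.37 ± 0.08), and NEURL1B (0.28 ± 0.09) and MIB2 (0.20 ± 0.06), ubiquitin ligases of the Neuralized and Mind bomb families. Such a count was not particular to DAPT. Relative to DMSO, IgG called 3 higher, JAG1-Fc beads 3 and A13 2, where 17.9%, 23.1% and 15.7% of all genes were called higher. With JAG1-Fc beads NEURL1B was among them (0.35 ± 0.09), and EPN3 and MIB2 were not. IgG against DAPT called 0 of the 6 (median -0.03). A13 against IgG lowered EPN3 by 0.34 ± 0.08 (adjusted p = 0.00626) and called no other gene of this list (median -0.04). JAG1-Fc against Fc beads called 0 of the 7 sugar enzymes and 0 of the 6 endocytosis genes, with medians of 0.01 and -0.07. Of 8 non-canonical ligands, DAPT against DMSO raised EGFL7 (0.33 ± 0.07), and both agonists called 0 against their own controls. IgG against DAPT raised DLK2 (0.25 ± 0.08), where 4.15% of all genes were called higher.

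Of the 4 receptors, A13 against IgG raised NOTCH3 (0.70 ± 0.14) and NOTCH1 (0.52 ± 0.09), and JAG1-Fc against Fc beads called 0 (median 0.19). Of 11 measured genes for cleavage and the nuclear complex, A13 called 1 higher and 2 lower, where 14.7% of all genes were called. It raised the coactivator MAML2 (0.32 ± 0.08) and lowered 2 subunits of gamma-secretase, PSENEN (-0.33 ± 0.08) and NCSTN (-0.25 ± 0.06). JAG1-Fc beads raised MAML2 (0.34 ± 0.08) and lowered PSENEN (-0.27 ± 0.08). Of 9 target genes A13 raised 6 and lowered 0 (median 0.34), where 5.68% of all genes were called higher. JAG1-Fc beads raised 3, where 2.97% were called higher: NRARP (1.01 ± 0.07), MYC (0.80 ± 0.07) and HES1 (0.22 ± 0.06). In the antagonism experiment A4 and DAPT each lowered 2 targets, HES1 and MYC, and 1 receptor, NOTCH3. Of all genes 0.0556% were called lower with A4 and 0.152% with DAPT. Both called none of the sugar enzymes, endocytosis genes, non-canonical ligands or cleavage genes.

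Across the 18 agonism arrays, and among genes above the median level, the genes whose log2 values ran most like JAG1 were GAS1 (Pearson r = 0.983), FJX1 (r = 0.977) and DSC2 (r = 0.976). For JAG2 they were REEP4 (r = 0.951), CUL1 (r = 0.945) and EIF2S2 (r = 0.945), for RFNG XRCC1, GRAMD2B and NUP98 (r from 0.952 to 0.957) and for DLL3 PINX1, DMKN and S100A3 (r from 0.815 to 0.857). LFNG lay below that level, and its nearest genes, looked up after its values were seen, were GALNT3 (r = 0.971), C9orf152 (r = 0.951) and ZNF185 (r = 0.949). The arrays share 6 treatments and 1 common scaling, so these correlations are a description.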

How the data were processed

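RNA of MDA-MB-468 cells was measured on 26 Affymetrix arrays, per the labels. The deposited table holds 1 linear intensity per probe set and array, from 7.12 to 32597. The submitters' processing notes list RMA and R 2.10 without saying what each did. The plan had assumed log2 values, so the intensities were first converted to log2. Of 54675 probe sets, 41097 carry 1 gene symbol, 1801 several and 11777 none, controls included, and 0 columns belong to other samples. The brightest single-gene probe set stood for each of 19775 genes, with no filter on dim genes. All groups of an experiment entered 1 limma fit (limma 3.58.1, R 4.3.3, no trend, not robust). Benjamini-Hochberg adjustment ran over the 19775 genes, and every adjusted p in the text comes from limma. Residual degrees of freedom numbered 5 (antagonism) and 12 (agonism), and the median SE was 0.0811 for agonism changes and 0.0877 for antagonism DAPT. The number of arrays limits precision. The fitting code was tested on simulated data. Arrays are numbered in listing order. The members, lists and naming rule (all 8 members, passing genes of the other lists, the 3 most alike genes) were chosen with earlier results of these data known. Alternatives were other scalings, fits, probe sets and filters, and each array left out. Some genes of the other lists are not analysed here. Plots were made in Python 3.11.15 (matplotlib 3.10.9).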

Additional observations from a re-analysis of the deposited data

How the results depend on the processing

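For 33 member changes 409 values were computed under alternatives. These were the called ones and some that missed the threshold, with limma's adjusted p up to 0.15. The missed ones were chosen by unadjusted p, with a looser limit for JAG1 than for the other members. The direction turned in 1, DLL1 for JAG1-Fc beads against DAPT, at -0.04 with the mean of all probe sets. JAG1 with A13 against IgG stayed called throughout (0.79 to 1.16), as did JAG1 with JAG1-Fc against Fc beads (0.49 to 0.68) and LFNG with A13 against IgG (-0.62 to -0.36) and with DAPT against DMSO (0.39 to 0.63). Median centring moved the median of all genes by at most 0.018.

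Counts of members called moved under these alternatives. Without _x_at and _s_at probe sets JAG1, DLL1 and DLL3 have no value, which leaves 5 members, and the count was 0 for JAG1-Fc against Fc beads, 1 for DAPT against DMSO, IgG against DAPT, IgG against DMSO, A13 against IgG and A13 against DMSO, 2 for A13 against DAPT and 3 for JAG1-Fc beads against DAPT and against DMSO. For DAPT in the antagonism experiment it was 1 (JAG1) in place of 0 with repeated quantile normalization, the mean of all probe sets, genes above the median level, and trend and robust estimation. The mean of all probe sets gave 1 for DAPT against DMSO (JAG1 lost, -0.18). For JAG1-Fc against Fc beads it was 2 with the mean of all probe sets and with trend and robust (LFNG added), and 2 among genes above the median level (JAG2 added). The last 2 settings gave 1 (JAG1) for Fc beads against IgG and for the difference of agonist effects. Repeated quantile normalization gave 3 in place of 2 for DAPT against DMSO and for IgG against DAPT, as did the mean of all probe sets for IgG against DAPT. That mean and the genes above the median level, where 4 members are measured, gave 3 in place of 4 for A13 against DAPT and 4 in place of 5 for JAG1-Fc beads against DAPT, and that filter gave 3 in place of 4 for JAG1-Fc beads against DMSO. With only its own groups fitted, JAG1-Fc beads against DMSO gave 5 and A13 against DMSO 2 in place of 3, and median centring gave 4 for A13 against DMSO. The cause of the shifts at unchanged members was not tested. With each array left out in turn the count ran from 0 to 1 for DAPT and for A4 in the antagonism experiment, for Fc beads against IgG and for JAG1-Fc beads against A13, from 1 to 2 for IgG against DMSO and JAG1-Fc against Fc beads, from 2 to 3 for A13 against IgG and A13 against DMSO, from 3 to 4 for A13 against DAPT and from 4 to 5 for JAG1-Fc beads against DAPT. It was 2 throughout for DAPT against DMSO and IgG against DAPT, 4 for JAG1-Fc beads against DMSO, and 0 for A4 against DAPT and the difference of agonist effects. Leaving out an A4 array leaves 1, assumed to vary like the other groups. Over all genes, DAPT in the antagonism experiment called 70, from 11 to 1198 with an array left out (1198 without control 2), 169 with repeated quantile normalization, 270 among genes above the median level, 306 with trend and robust estimation, 41 without _x_at and _s_at probe sets and 18 with only its own groups fitted. A4 there called 20, from 0 to 96 (96 without control 2), 53, 107, 144, 14 and 0 under the same settings in that order. No paired analysis was possible because the labels carry no replicate numbers. The deposited values carry no detection calls, so a dim probe set such as those of DLL1 may miss a change.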
